A study of Mus musculus with 12 samples.

Results

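The 37 genes described here encode lysosomal hydrolases, their activator proteins, lysosomal membrane proteins and Tfeb, a transcription factor of lysosomal genes. They were listed by name and function, with earlier results of these data known, out of 35675 mouse genes with a symbol in the annotation, of which 13456 passed the filter on low counts. All 37 passed that filter. The question was which of them were higher in RalAB cKO and in RalA cKO oligodendrocyte-enriched cells than in control cells, and which were higher in RalA cKO, where the summed level of microglial genes was not above control.

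Lysosomes are acid organelles in which cathepsins cut proteins, glycosidases and sulfatases take apart glycans and glycolipids, and lipases release fatty acids and cholesterol. Saposins and the GM2 activator present lipids to the enzymes, and membrane proteins such as LAMP1, LAMP2, CLN3 and the calcium channel mucolipin 1 protect the membrane, carry ions and guide fusion with other compartments. TFEB binds a short palindromic DNA element before many lysosomal genes. In the nervous system, loss of galactosylceramidase or arylsulfatase A damages myelin, and microglia are rich in several cathepsins and in progranulin.

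RalA and RalB are related small GTPases. The RalAB cKO mice carried RalAflox/flox and RalBflox/flox alleles, the RalA cKO mice carried RalAflox/flox alone, and the control mice carried neither. All 3 groups also carried CnpCre and the reporter Rosa26-StopFlox-TdTomato. CnpCre drives recombination in cells that express Cnp, a myelin gene. Spinal cords of mice at postnatal day 10 were dissociated and sorted for tdTomato and large forward scatter, with 4 mice per group and 1 library per mouse.

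The libraries held 10928206 to 15440437 estimated counts. Levels are given in CPM, the estimated counts of a gene relative to its library's total, scaled by trimmed mean of M values (TMM). A gene is said to have risen or fallen where its adjusted p was under 0.05 in edgeR's quasi-likelihood test with Benjamini-Hochberg adjustment over all genes tested. Fold changes are log2 values ± standard error with 4 mice per group. The 14 genes of a mature oligodendrocyte list summed to 97102 to 124750 CPM in RalAB cKO, 112639 to 131415 CPM in RalA cKO and 95450 to 125437 CPM in control, so every library held the labelled cell type. Rala had 32.2 to 42.9 CPM in RalAB cKO, 33.1 to 42.7 CPM in RalA cKO and 35.5 to 59.3 CPM in control, and Ralb lay between 13.4 and 23.3 CPM in all libraries. Neither gene passed the test in either mutant. The summed gene counts cover all exons and no source here names the floxed exons, so they do not check the genotypes. The summed level of Ddx3y, Eif2s3y, Kdm5d and Uty, 4 genes of the Y chromosome, exceeded that of Xist in 2 of 4 RalAB cKO, 3 of 4 RalA cKO and 1 of 4 control libraries. Some libraries held both signals. The Y-linked sum and Xist were 13.2 and 116 CPM in control mouse 2, 8.58 and 227 CPM in RalA cKO mouse 2, and 49.9 and 10.4 CPM in RalAB cKO mouse 3. In control mouse 4 they were 0.273 and 68.3 CPM. The cause of the mixed signals was not tested.

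Because several of these genes rose in both mutants, their promoters are shown first. RefSeq windows of GRCm38.p6, from 250 bases before to 50 bases after a gene's start, were found for 34 of the 37 genes. The windows were searched on both strands for CACGTG, a core of the element that TFEB binds, and for the longer palindrome TCACGTGA, which holds it. At least 1 window held CACGTG in 13 of the 34 genes (38.2%), against 8.09% of 27025 genes with a window. The 13 were Ctsa, Ctsd, Ctsf, Ctsl, Glb1, Arsa, Gla, Gaa, Naglu, Lamp1, Lgmn, Mcoln1 and Cln3. Of these only Ctsa, Ctsf, Mcoln1 and Cln3 rose in RalA cKO, while Hexa, Neu1 and Cd63 rose there without a match. TCACGTGA stood in 5 of the 34 genes (14.7%), which were Ctsa, Ctsd, Gla, Mcoln1 and Cln3, against 1.12% of all genes. Gla rose in neither mutant. A match is a description of the letters and not of binding. The windows of Cln3, Mcoln1 and Ctsa are printed because these 3 genes rose in RalA cKO and hold TCACGTGA, that of Ctsd because it holds the same letters but rose in RalAB cKO only, and that of Cd63 because it rose in both mutants and holds none of the motifs. Capitals mark the longest motif found at each place, and where a gene has several windows the one with a match is shown.
Cln3, chr7:126583187-126583486, minus strand: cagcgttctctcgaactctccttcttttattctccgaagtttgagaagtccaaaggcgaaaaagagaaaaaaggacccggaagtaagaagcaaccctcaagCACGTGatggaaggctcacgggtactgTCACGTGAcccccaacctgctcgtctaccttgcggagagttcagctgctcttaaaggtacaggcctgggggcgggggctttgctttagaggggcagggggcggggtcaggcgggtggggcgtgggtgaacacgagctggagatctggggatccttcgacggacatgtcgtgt
Mcoln1, chr8:3500269-3500568, plus strand: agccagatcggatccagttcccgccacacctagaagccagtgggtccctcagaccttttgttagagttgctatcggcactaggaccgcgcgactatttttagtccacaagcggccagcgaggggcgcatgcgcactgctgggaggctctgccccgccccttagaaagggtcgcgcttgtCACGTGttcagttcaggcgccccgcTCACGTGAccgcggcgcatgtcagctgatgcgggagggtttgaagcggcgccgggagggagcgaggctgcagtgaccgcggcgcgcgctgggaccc
Ctsa, chr2:164833523-164833822, plus strand: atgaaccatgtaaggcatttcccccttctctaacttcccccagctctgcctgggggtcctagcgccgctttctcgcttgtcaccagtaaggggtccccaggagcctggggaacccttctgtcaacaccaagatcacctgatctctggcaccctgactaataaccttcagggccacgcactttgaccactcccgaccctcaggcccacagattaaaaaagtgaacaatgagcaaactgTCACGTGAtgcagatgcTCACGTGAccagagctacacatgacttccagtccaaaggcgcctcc
Ctsd, chr7:142387778-142388077, minus strand: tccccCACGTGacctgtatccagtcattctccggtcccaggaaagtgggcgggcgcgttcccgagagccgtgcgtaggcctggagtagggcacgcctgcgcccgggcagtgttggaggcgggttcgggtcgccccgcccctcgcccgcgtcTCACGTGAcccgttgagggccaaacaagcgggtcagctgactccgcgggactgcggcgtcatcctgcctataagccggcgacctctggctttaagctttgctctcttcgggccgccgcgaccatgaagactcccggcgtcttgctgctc
Cd63, chr10:128909095-128909394, plus strand: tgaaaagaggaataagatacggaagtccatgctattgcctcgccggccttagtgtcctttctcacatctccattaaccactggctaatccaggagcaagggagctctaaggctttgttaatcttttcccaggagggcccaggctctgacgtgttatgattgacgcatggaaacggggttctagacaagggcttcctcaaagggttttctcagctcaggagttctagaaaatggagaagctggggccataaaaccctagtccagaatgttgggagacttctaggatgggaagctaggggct
In Cln3 the matches began 149 and 122 bases before the start. In Mcoln1 the matches began 71 and 46 bases before the start, and in Ctsd 245 and 99 bases before it. Ctsa holds TCACGTGA at 2 places, one of them beginning 13 bases before the start and the other just after it.

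In RalAB cKO cells 19 of the 37 genes rose against control and none fell, in a comparison where 18.4% of all genes tested passed (9.39% higher and 9.02% lower). Their median difference over all 37 was 0.40 log2, against -0.01 over all genes tested. In RalA cKO cells 7 of the 37 rose and none fell, in a comparison where 2.78% of all genes passed (1.71% higher and 1.07% lower), and the median was 0.22 log2 against -0.02. The 7 were Cln3, Cd63, Ctsf, Ctsa, Hexa, Neu1 and Mcoln1. At an unadjusted p under 0.05, 22 genes were higher and 0 lower in RalAB cKO, and 13 were higher and 3 lower in RalA cKO. The share of all genes under that p was not counted, so no unadjusted count here or below is read as a result. DESeq2 called 19 higher and 0 lower in RalAB cKO, and 8 higher and 2 lower, Ctss and Scarb2, in RalA cKO. Of all 13456 genes it called 1578 higher and 1386 lower in RalAB cKO, and 613 higher and 470 lower in RalA cKO. The DESeq2 counts of lists below stand beside these totals. The 4 mutant libraries lay wholly above or below the 4 control libraries for 18 genes in RalAB cKO, all higher, where 19.2% of all genes did so (9.88% higher and 9.34% lower), and for 14 genes in RalA cKO, 13 of them higher, where 11.4% of all genes did so (5.64% higher and 5.77% lower). Both comparisons use the same control libraries, so their values are given side by side. In bulk libraries such as these, more cells of a type and more RNA per cell cannot be told apart.

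**Figure D1:**
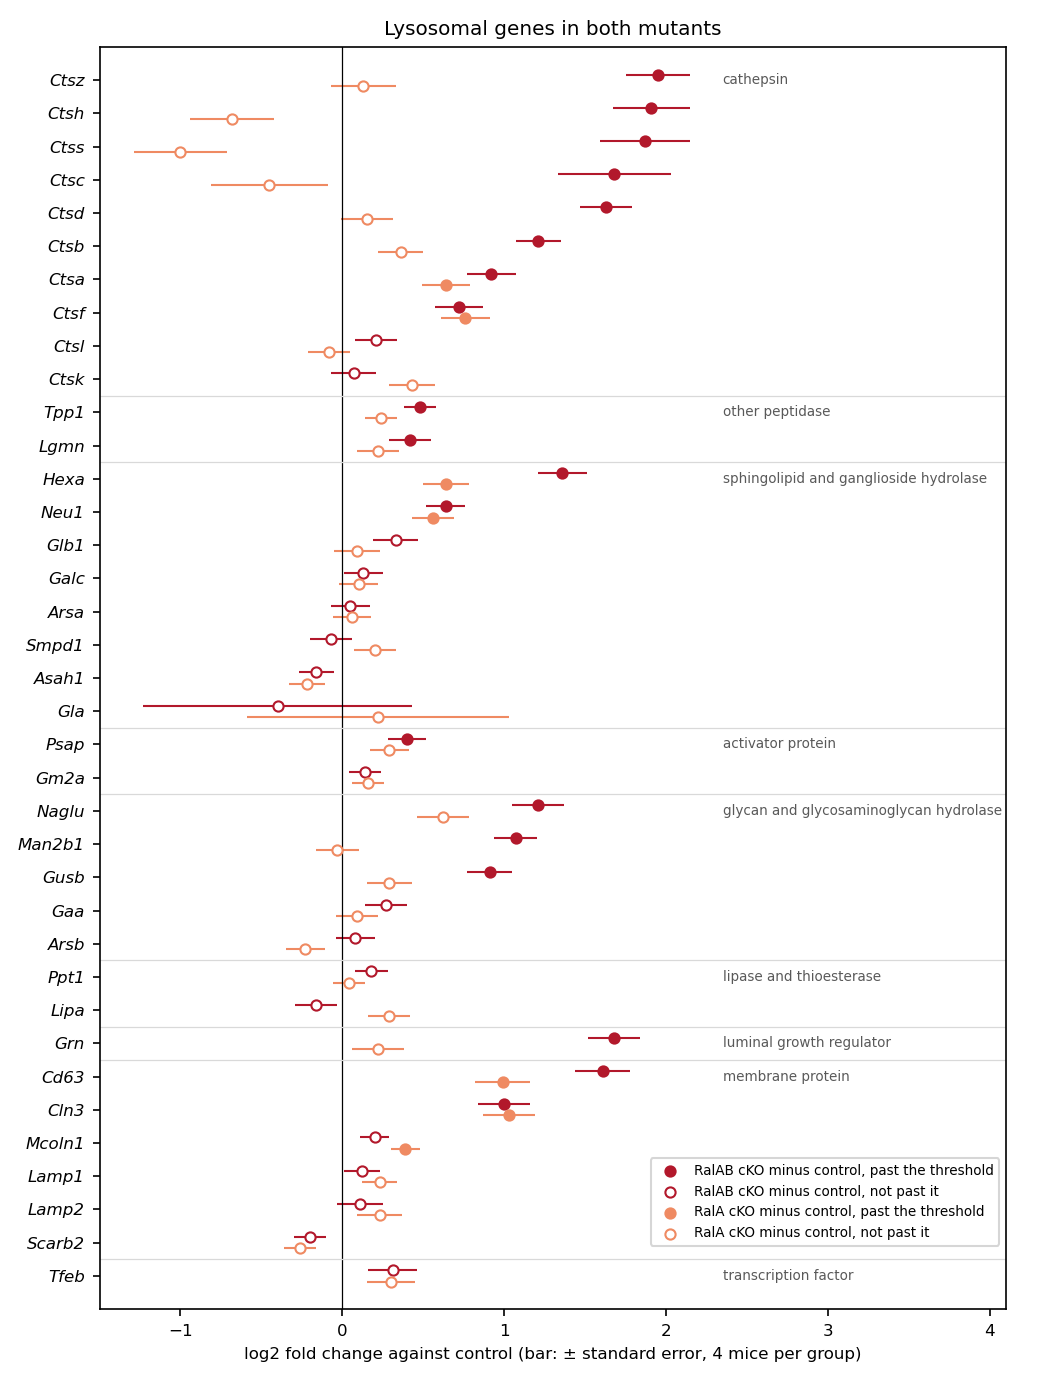
Log2 fold change against control of all 37 genes in RalAB cKO (dark red) and RalA cKO (orange), grouped by role, with bars of ± 1 standard error and filled points for genes past the threshold. Cln3, Ctsf and Neu1 have close values in both mutants, while Ctsz, Ctsh, Ctss, Ctsc, Ctsd and Grn lie far to the right in RalAB cKO only.

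Among the membrane proteins, Cln3 and Cd63 rose in both mutants. Cln3, the protein lost in juvenile neuronal ceroid lipofuscinosis, lies on chromosome 7 (126571207 to 126585817, minus strand). It had 60.4, 81.7, 81.8 and 72.7 CPM in RalAB cKO mice and 64.0, 63.7, 71.7 and 102 CPM in RalA cKO mice, against 38.5, 41.1, 29.6 and 39.0 CPM in control mice. All 8 mutant libraries were above all control libraries, and the mutants overlapped each other. Cln3 changed by 1.00 ± 0.16 log2 in RalAB cKO (adjusted p = 0.000479) and by 1.03 ± 0.16 log2 in RalA cKO (adjusted p = 0.00364). Its direct difference between the mutants was -0.02 log2, with a 95% interval of -0.35 to 0.30.

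Cd63, a tetraspanin of late endosomes and lysosomes on chromosome 10 (128900989 to 128912822, plus strand), had 151, 179, 198 and 188 CPM in RalAB cKO mice and 80.3, 94.7, 126 and 164 CPM in RalA cKO mice, against 58.0, 59.2, 56.9 and 60.3 CPM in control mice. The control mice were nearly alike, both mutant groups lay above them, and the RalA cKO mice were spread widely up to the RalAB cKO levels. The difference was 1.61 ± 0.17 log2 in RalAB cKO (adjusted p = 2.39e-05) and 0.99 ± 0.17 log2 in RalA cKO (adjusted p = 0.00701). RalAB cKO exceeded RalA cKO by 0.62 ± 0.17 log2 (adjusted p = 0.0231), a call that was kept in 7 of the 12 fits that each left out 1 library.

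Mcoln1, which encodes mucolipin 1, the calcium channel of the lysosomal membrane, passed in RalA cKO only. It had 77.7, 82.2, 83.8 and 80.1 CPM in RalAB cKO mice and 91.4, 87.7, 87.8 and 104 CPM in RalA cKO mice, against 74.1, 71.4, 65.6 and 71.5 CPM in control mice. The 3 groups did not overlap, with RalAB cKO between the others. In TPM RalAB cKO, at 64.9 to 83.6, overlapped both RalA cKO, at 70.9 to 95.2, and control, at 64.0 to 69.6. The difference was 0.20 ± 0.09 log2 in RalAB cKO (adjusted p = 0.14) and 0.39 ± 0.09 log2 in RalA cKO (adjusted p = 0.0285), and RalAB cKO minus RalA cKO was -0.20 log2 (95% interval -0.38 to -0.01, adjusted p = 0.202).

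The bulk proteins of the lysosomal membrane did not pass. Lamp1 had 1482, 1745, 1840.3 and 1707 CPM in RalAB cKO mice and 1694, 1836, 1685 and 2114 CPM in RalA cKO mice, against 1584, 1439.6, 1455 and 1767 CPM in control mice. Lamp2, which also serves chaperone-mediated autophagy, had 113, 106, 133 and 98.3 CPM in RalAB cKO mice and 94.6, 124, 127 and 144 CPM in RalA cKO mice, against 84.0, 116, 98.4 and 119 CPM in control mice. For both genes the 3 groups overlapped. The differences of Lamp1 were 0.12 and 0.23 log2 and those of Lamp2 0.11 and 0.23 log2, in RalAB cKO and in RalA cKO in that order. Scarb2, the receptor that carries glucocerebrosidase to lysosomes, did not pass at -0.20 log2 in RalAB cKO and -0.26 log2 in RalA cKO (adjusted p = 0.126). With library totals as the only scaling, Scarb2 passed as lower in both mutants.

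Of the 10 cathepsins, 8 rose in RalAB cKO and 2, Ctsa and Ctsf, in RalA cKO. Ctsa, or cathepsin A, is the protective protein that stabilises beta-galactosidase and neuraminidase 1. It had 289, 423, 473 and 454 CPM in RalAB cKO mice and 313, 313, 310.5 and 418 CPM in RalA cKO mice, against 229, 197, 205 and 236 CPM in control mice. Ctsf, a cysteine cathepsin, had 59.5, 88.0, 98.3 and 104 CPM in RalAB cKO mice and 84.5, 85.3, 82.5 and 108 CPM in RalA cKO mice, against 57.4, 45.1, 51.2 and 59.0 CPM in control mice. Mutant and control mice did not overlap for either gene, though for Ctsf RalAB cKO mouse 1 was barely above control mouse 4. Ctsa changed by 0.92 ± 0.15 log2 in RalAB cKO (adjusted p = 0.000522) and 0.64 ± 0.15 log2 in RalA cKO (adjusted p = 0.0277). Ctsf changed by 0.72 ± 0.15 log2 in RalAB cKO (adjusted p = 0.00444) and 0.76 ± 0.15 log2 in RalA cKO (adjusted p = 0.0167). The mutants differed by 0.27 log2 for Ctsa (95% interval -0.03 to 0.58) and by -0.04 log2 for Ctsf (95% interval -0.37 to 0.28).

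**Figure D2:**
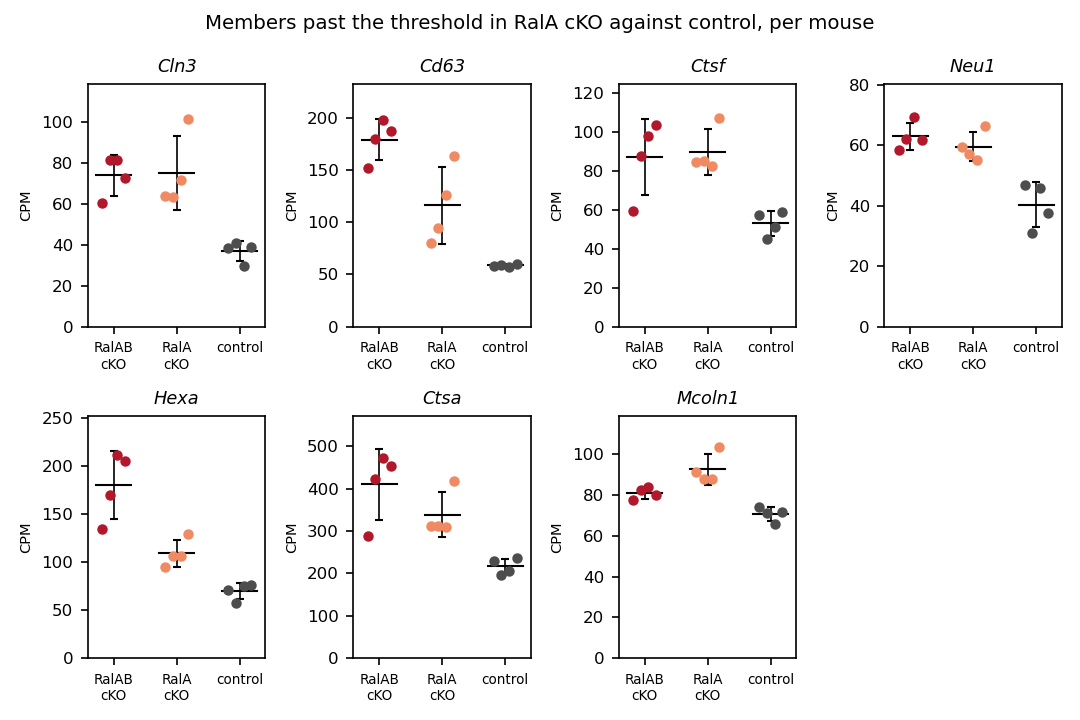
CPM per mouse of the 7 genes that rose in RalA cKO, with 1 point per mouse, the group mean and a bar of ± 1 SD. Every RalA cKO point lies above every control point in each panel, and RalA cKO mouse 4 is the highest of its group in all 7.

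The other cathepsins that rose did so in RalAB cKO only. Ctsd, the main aspartic protease of lysosomes, had 1160.0, 1781, 2154 and 2207 CPM in RalAB cKO mice and 649, 634, 608 and 714 CPM in RalA cKO mice, against 615, 522, 588 and 629 CPM in control mice. Ctsb, an abundant cysteine protease, had 807, 1131, 1262 and 1332 CPM in RalAB cKO mice and 609, 564, 612 and 735 CPM in RalA cKO mice, against 461, 476, 503 and 519 CPM in control mice. Every RalAB cKO mouse exceeded all others for both genes, and for Ctsb the RalA cKO mice stood between the other groups without overlap. In TPM RalA cKO overlapped control for Ctsb, at 398 to 500 against 376 to 470. Ctsd differed from control by 1.63 ± 0.16 log2 in RalAB cKO (adjusted p = 1.55e-05) and 0.15 ± 0.16 log2 in RalA cKO (adjusted p = 0.604). Ctsb differed by 1.21 ± 0.14 log2 in RalAB cKO (adjusted p = 3.8e-05) and 0.36 ± 0.14 log2 in RalA cKO (adjusted p = 0.139).

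Ctsz, Ctsh, Ctss and Ctsc are cathepsins rich in myeloid cells. Ctsz had 91.5, 128, 172 and 172 CPM in RalAB cKO mice and 44.1, 30.6, 42.0 and 42.9 CPM in RalA cKO mice, against 28.5, 34.3, 46.2 and 37.1 CPM in control mice. Ctsh, an aminopeptidase, had 14.9, 19.6, 23.8 and 22.5 CPM in RalAB cKO mice and 2.68, 2.74, 4.28 and 3.63 CPM in RalA cKO mice, against 4.19, 4.92, 8.31 and 3.91 CPM in control mice. RalAB cKO stood apart for both genes, and RalA cKO overlapped control. The difference from control was 1.95 ± 0.20 log2 for Ctsz (adjusted p = 2.35e-05) and 1.91 ± 0.24 log2 for Ctsh (adjusted p = 8.67e-05) in RalAB cKO. In RalA cKO it was 0.13 log2 for Ctsz and -0.68 ± 0.26 log2 for Ctsh (adjusted p = 0.137).

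Ctss, which trims antigen-presenting complexes in myeloid cells, had 78.2, 83.9, 129 and 119.9 CPM in RalAB cKO mice and 14.7, 9.73, 16.2 and 15.44 CPM in RalA cKO mice, against 13.6, 33.8, 38.3 and 26.6 CPM in control mice. The RalA cKO mice were low together, and control mouse 1 was as low as they were. The difference was 1.87 ± 0.28 log2 in RalAB cKO (adjusted p = 0.000634) and -1.0 ± 0.29 log2 in RalA cKO, which did not pass (adjusted p = 0.0776). Ctss passed as lower in RalA cKO with DESeq2 and without control mouse 1. Ctsc, which activates granule serine proteases, differed by 1.68 ± 0.35 log2 in RalAB cKO (adjusted p = 0.00372) and by -0.45 ± 0.36 log2 in RalA cKO. Neither Ctsl, the abundant endopeptidase, nor Ctsk, the collagenase of osteoclasts, passed: Ctsl differed by 0.21 and -0.08 log2, and Ctsk by 0.07 and 0.43 log2, in RalAB cKO and in RalA cKO in that order.

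Of the 2 other peptidases, Tpp1, the tripeptidyl peptidase of late infantile ceroid lipofuscinosis, rose by 0.48 ± 0.10 log2 in RalAB cKO (adjusted p = 0.00302), and did not pass in RalA cKO at 0.24 ± 0.10 log2. Lgmn, the asparaginyl endopeptidase that matures cathepsins, rose by 0.42 ± 0.13 log2 in RalAB cKO (adjusted p = 0.0329), kept in 7 of the 12 fits without 1 library, and was at 0.22 ± 0.13 log2 in RalA cKO.

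Of the 8 sphingolipid and ganglioside hydrolases, Hexa and Neu1 rose in both mutants, and no other did. Hexa, the alpha subunit of beta-hexosaminidase that is lost in Tay-Sachs disease, had 134, 169, 211 and 205 CPM in RalAB cKO mice and 94.9, 106, 106 and 129 CPM in RalA cKO mice, against 71.3, 57.5, 75.0 and 76.4 CPM in control mice. Neu1, the sialidase, had 58.5, 62.1, 69.2 and 61.5 CPM in RalAB cKO mice and 59.4, 57.2, 55.2 and 66.3 CPM in RalA cKO mice, against 46.8, 31.01, 45.9 and 37.5 CPM in control mice. The 3 groups were stepwise and separate for Hexa, while for Neu1 the mutants overlapped each other above all controls. In TPM both mutants overlapped control for Neu1, at 38.7 to 55.6 in RalAB cKO, 35.7 to 45.4 in RalA cKO and 27.6 to 40.3 in control. Hexa changed by 1.36 ± 0.15 log2 in RalAB cKO (adjusted p = 2.3e-05) and 0.64 ± 0.14 log2 in RalA cKO (adjusted p = 0.0276). Neu1 changed by 0.64 ± 0.12 log2 in RalAB cKO (adjusted p = 0.00231) and 0.56 ± 0.13 log2 in RalA cKO (adjusted p = 0.0267), and the mutants differed by 0.08 log2 (95% interval -0.18 to 0.34).

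Galc, the galactosylceramidase that degrades the main glycolipid of myelin, had 52.6, 52.9, 52.1 and 49.1 CPM in RalAB cKO mice and 49.5, 46.4, 49.4 and 57.4 CPM in RalA cKO mice, against 36.4, 47.6, 48.4 and 56.5 CPM in control mice. The groups overlapped, and the differences were 0.13 log2 (95% interval -0.12 to 0.39) in RalAB cKO and 0.10 log2 (-0.15 to 0.36) in RalA cKO. Arsa, the sulfatase of myelin sulfatide, differed by 0.05 and 0.06 log2, Glb1, beta-galactosidase, by 0.33 and 0.09 log2, Smpd1, acid sphingomyelinase, by -0.07 and 0.20 log2, and Asah1, acid ceramidase, by -0.16 and -0.22 log2, in RalAB cKO and in RalA cKO in that order. Gla, alpha-galactosidase A, was measured poorly, between 0.715 and 10.7 CPM across the 12 libraries, with intervals of -2.21 to 1.41 log2 in RalAB cKO and -1.56 to 2.00 log2 in RalA cKO.

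Psap encodes the precursor of the 4 saposins, which several of these hydrolases need. It had 1455, 1911, 2036 and 2008 CPM in RalAB cKO mice and 1625, 1625, 1611 and 2038 CPM in RalA cKO mice, against 1457, 1318, 1388 and 1464 CPM in control mice. RalAB cKO mouse 1 lay within the control range, and the other mutant libraries lay above it. In TPM RalA cKO overlapped control as well, at 1020 to 1244 against 986 to 1086. Psap rose by 0.40 ± 0.12 log2 in RalAB cKO (adjusted p = 0.034), kept in 6 of the 12 fits without 1 library, and did not pass in RalA cKO at 0.29 ± 0.12 log2 (adjusted p = 0.17). Gm2a, the GM2 activator, was at 0.14 and 0.16 log2 in RalAB cKO and in RalA cKO.

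Of the 5 glycan and glycosaminoglycan hydrolases, 3 rose in RalAB cKO and none in RalA cKO, where Naglu alone had an unadjusted p under 0.05 and was called by DESeq2. Naglu, the heparan sulfate hydrolase lost in Sanfilippo syndrome type B, had 26.7, 37.9, 45.0 and 39.2 CPM in RalAB cKO mice and 23.2, 21.8, 23.1 and 30.5 CPM in RalA cKO mice, against 18.7, 14.6, 15.7 and 15.3 CPM in control mice. Man2b1, the alpha-mannosidase, had 101, 125, 154 and 146 CPM in RalAB cKO mice and 63.3, 61.4, 53.9 and 67.0 CPM in RalA cKO mice, against 54.0, 59.8, 71.6 and 65.6 CPM in control mice. Gusb, beta-glucuronidase, had 58.6, 84.3, 101 and 92.6 CPM in RalAB cKO mice and 54.6, 53.6, 51.3 and 58.9 CPM in RalA cKO mice, against 42.0, 41.6, 44.9 and 50.6 CPM in control mice. Both mutants were above all controls for Naglu and Gusb, while for Man2b1 RalA cKO overlapped control. In TPM RalA cKO overlapped control for Naglu, at 14.2 to 24.5 against 14.7 to 15.1. It also did so for Gusb, at 36.2 to 39.8 against 32.4 to 38.9. In RalAB cKO the differences were 1.21 ± 0.16 log2 for Naglu (adjusted p = 0.000112), 1.07 ± 0.13 log2 for Man2b1 (adjusted p = 6.52e-05) and 0.91 ± 0.14 log2 for Gusb (adjusted p = 0.000383). In RalA cKO, Naglu narrowly missed the threshold at 0.62 ± 0.16 log2 (adjusted p = 0.0508), Gusb was at 0.29 ± 0.14 log2 and Man2b1 at -0.03 ± 0.13 log2. Gaa, the glycogen-degrading alpha-glucosidase, and Arsb, the dermatan sulfate sulfatase, did not pass in either mutant.

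Grn, which encodes progranulin, a luminal growth regulator, had 256, 403, 427 and 419 CPM in RalAB cKO mice and 120.5, 113, 142 and 170.2 CPM in RalA cKO mice, against 109, 116, 124 and 121 CPM in control mice. RalAB cKO stood apart and RalA cKO overlapped control, giving 1.68 ± 0.16 log2 (adjusted p = 1.38e-05) in RalAB cKO and 0.22 ± 0.16 log2 in RalA cKO (adjusted p = 0.415). Of the lipid enzymes, Lipa, the acid lipase, was at -0.16 and 0.29 log2, and Ppt1, a palmitoyl thioesterase, at 0.18 and 0.04 log2, in RalAB cKO and in RalA cKO in that order; none passed.

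Tfeb had 171, 224, 221 and 222 CPM in RalAB cKO mice and 203, 205, 183 and 237 CPM in RalA cKO mice, against 226, 151, 138 and 159.8 CPM in control mice. Control mouse 1 was as high as the mutants, and the other 3 controls were below them all. Tfeb was at 0.31 ± 0.15 log2 in RalAB cKO (adjusted p = 0.152) and 0.30 ± 0.15 log2 in RalA cKO (adjusted p = 0.235). Without both control mouse 1 and RalAB cKO mouse 1 it passed in both mutants.

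Per transcript length, Lamp1 was the most abundant of the 37 in control cells at 1219 ± 83.7 TPM, followed by Psap at 1024 ± 45.8 TPM and Ctsl at 721 ± 109 TPM (SD, n = 4). In RalAB cKO cells Ctsd was first, at 1518 ± 292 TPM, against 532 ± 37.7 TPM and place 5 in control. The 37 genes together had 11765 ± 1784 CPM in RalAB cKO, 9083 ± 902 CPM in RalA cKO and 7830 ± 440 CPM in control (SD, n = 4 each). In TPM, which were not scaled by TMM, the sums were 9374 ± 726 in RalAB cKO, 6797 ± 458 in RalA cKO and 6584 ± 341 in control, and the RalA cKO range of 6341 to 7335 TPM overlapped that of control, 6235 to 6939 TPM.

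The direct comparison of the mutants found 12 genes higher in RalAB cKO than in RalA cKO and 1 lower, where 11.5% of all genes tested passed (7.03% higher and 4.5% lower). The median over the 37 was 0.18 log2, against -0.03 over all genes. The 2 groups did not overlap for 12 genes, 10 higher and 2 lower, where 17.3% of all genes did so (9.65% higher and 7.63% lower). The largest were Ctss at 2.87 ± 0.29 log2 (adjusted p = 3.58e-05), Ctsh at 2.59 ± 0.26 log2 (adjusted p = 1.14e-05), Ctsc at 2.13 ± 0.36 log2 and Ctsz at 1.82 ± 0.20 log2 (adjusted p = 2.98e-05), all 4 of them cathepsins. Ctsd at 1.49 ± 0.16 log2 (adjusted p = 1.98e-05), Grn at 1.46 ± 0.16 log2 (adjusted p = 1.95e-05) and Man2b1 at 1.10 ± 0.13 log2 (adjusted p = 4.12e-05) followed, with Ctsb, Hexa, Gusb, Cd63 and Naglu between 0.59 and 0.85 log2. Naglu kept its call in 7 of the 12 fits that each left out 1 library, and lost it with transcript length offsets (0.44 log2) and with the summed genes of the Y chromosome as a covariate (adjusted p = 0.15), the settings with its lowest value and its highest p. The fall of Lipa, by 0.45 ± 0.13 log2 in RalAB cKO (adjusted p = 0.0397), was kept in 6 of the 12 fits without 1 library.

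**Figure D3:**
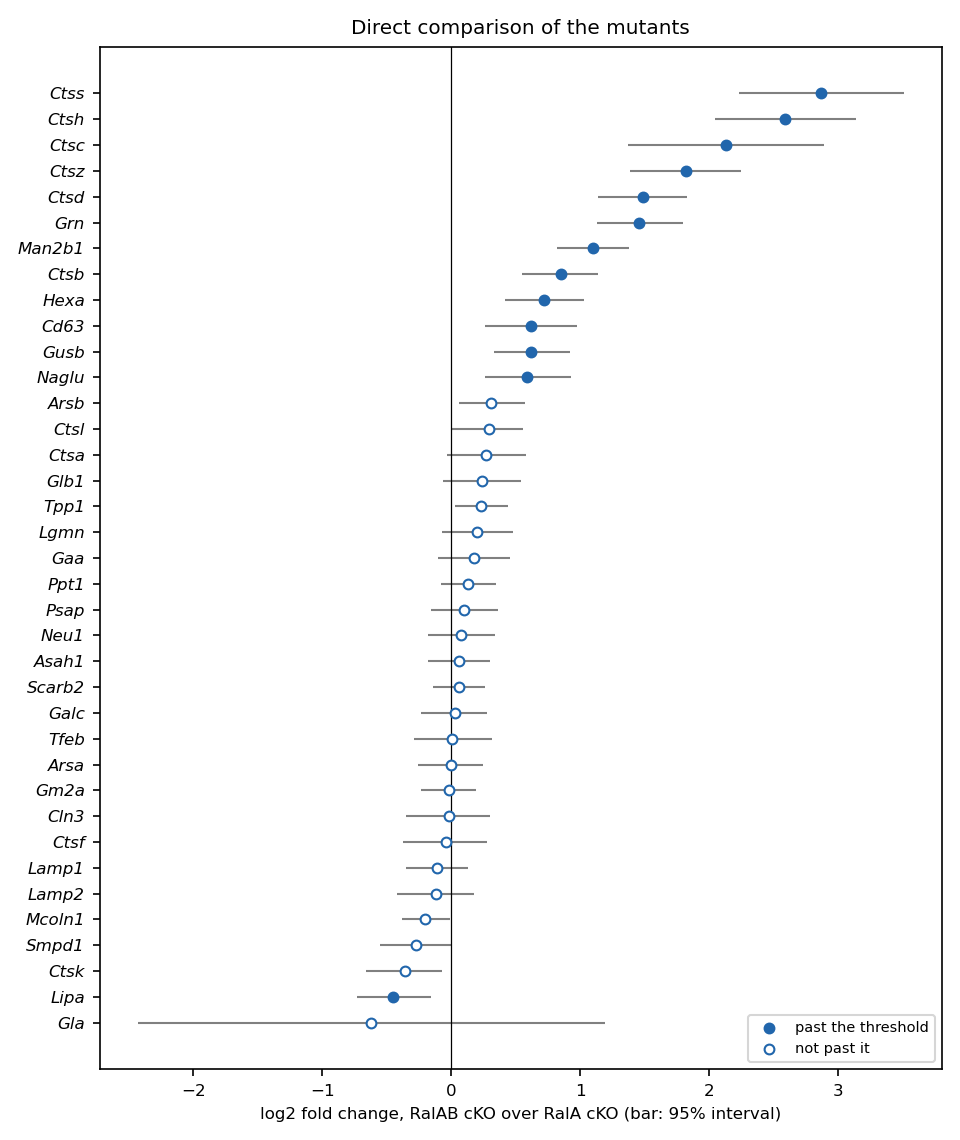
Log2 fold change of RalAB cKO over RalA cKO for all 37 genes with 95% intervals, filled where past the threshold. Ctss, Ctsh, Ctsc and Ctsz lie furthest to the right, while Cln3, Ctsf and Neu1 lie close to 0 with intervals between -0.37 and 0.34.

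**Figure D4:**
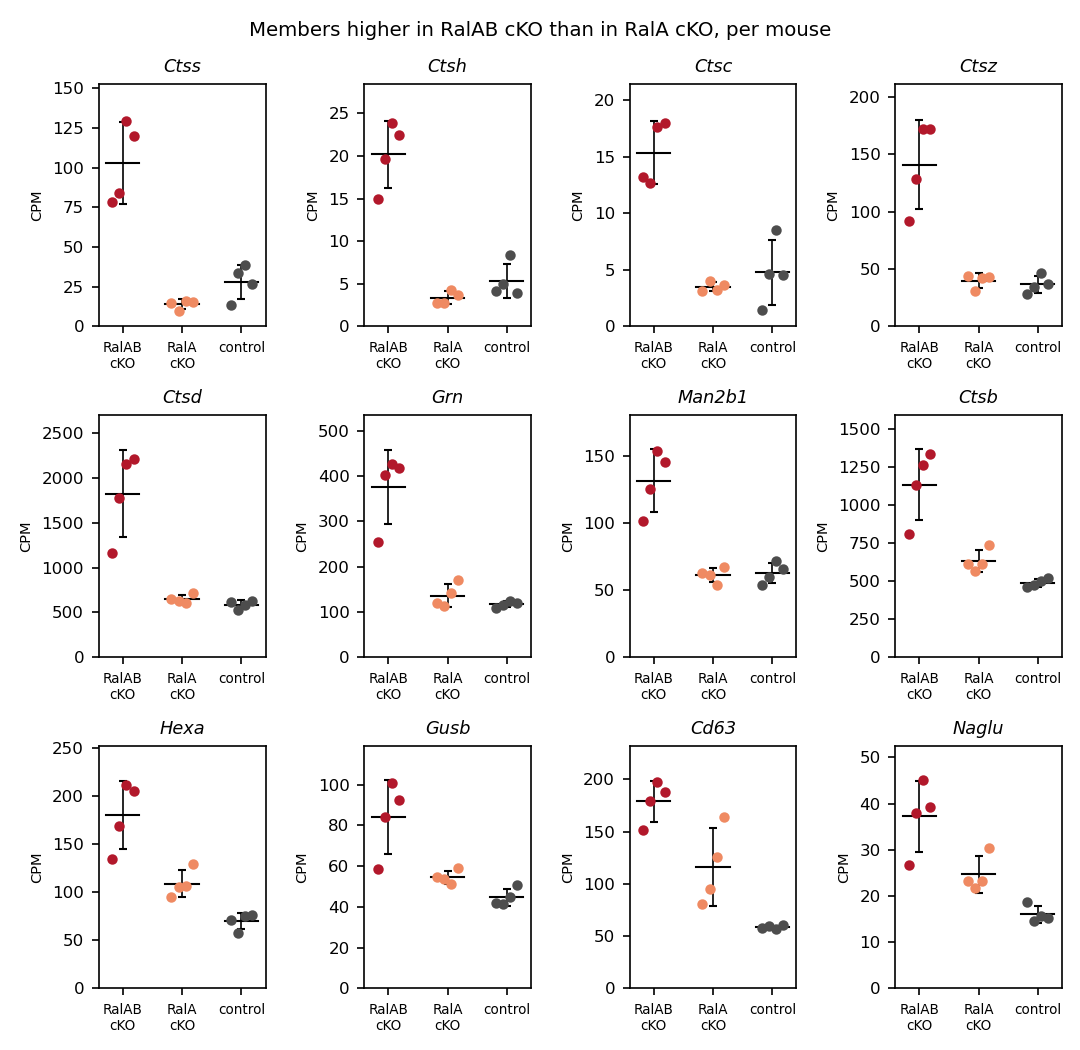
CPM per mouse of the 12 genes higher in RalAB cKO than in RalA cKO, with 1 point per mouse, the group mean and a bar of ± 1 SD. RalAB cKO mouse 1 is the lowest or nearly the lowest of its group in each panel.

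Microglial RNA differed between the groups, and its level is given beside these counts. The 22 genes of a microglial list summed to 1558 to 2724 CPM in RalAB cKO, 309 to 483 CPM in RalA cKO and 440 to 821 CPM in control, and none of the 22 was at 0 in any library. Of the 22, 20 rose in RalAB cKO with a median of 1.92 log2. Over all genes tested, 9.39% rose and 9.02% fell in RalAB cKO, and 1.71% rose and 1.07% fell in RalA cKO. In RalA cKO, Ly86, Siglech and Itgam fell and none rose, 16 were lower at an unadjusted p under 0.05, DESeq2 called 9 lower, and the median was -0.70 log2. Of 12 tested genes of reactive phagocytes, all 12 rose in RalAB cKO. In RalA cKO none passed, with 1 higher at an unadjusted p under 0.05 and 1 called higher by DESeq2. The genes Itgax, Cst7, Gpnmb, Msr1 and Ch25h of that list of 15 were at 0 in at least 1 library. The 6 members listed by general knowledge as rich in myeloid cells, Ctss, Ctsc, Ctsh, Ctsz, Lgmn and Grn, all rose in RalAB cKO with a median of 1.78 log2. None passed in RalA cKO, with a median of -0.16 log2, 2 of them lower at an unadjusted p under 0.05 and 1, Ctss, called lower by DESeq2. Lgmn rose by 0.42 log2 in RalAB cKO, against 1.68 to 1.95 log2 for the others listed. It had 538 to 721 CPM in control, beside 440 to 821 CPM for the whole microglial sum. The other 31 genes held all 7 genes that rose in RalA cKO, and 13 of them rose in RalAB cKO. Of these 13, Ctsb, Ctsd, Gusb, Man2b1, Naglu, Psap and Tpp1 rose in RalAB cKO only, and the rest in both mutants. Absence from the list of 6 does not exclude myeloid expression. The 7 rose in RalA cKO libraries whose microglial sum had a mean of 411 ± 74.2 CPM, against 629 ± 158 CPM in control (SD, n = 4 each). The part of microglial RNA in the RalAB cKO rises was not tested.

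**Figure D5:**
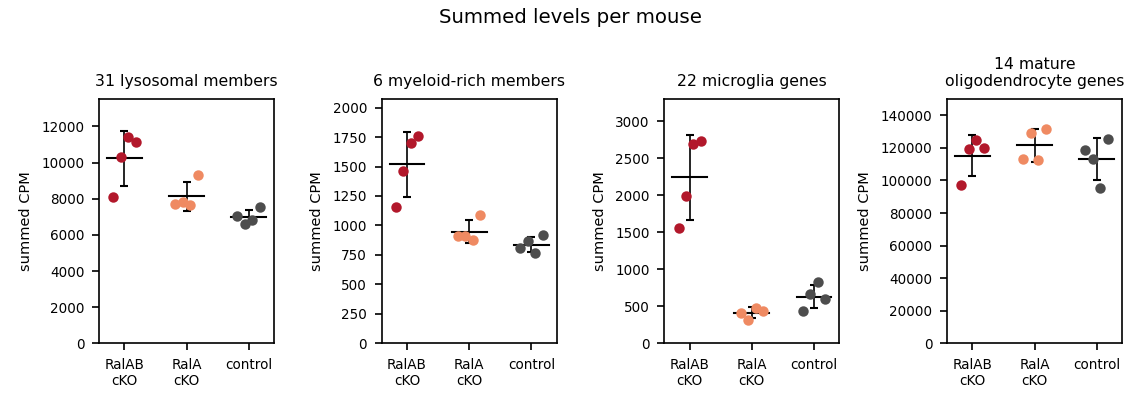
Summed CPM per mouse of the 31 members not listed as myeloid-rich, the 6 members so listed by general knowledge, the 22 microglial genes and the 14 mature oligodendrocyte genes. Lines give the group mean and a bar of ± 1 SD. Absence from the list does not exclude myeloid expression. In RalA cKO the microglial sum lies between 309 and 483 CPM, overlapping control at the low end, while the sum of the 31 members is 7657 to 9341 CPM against 6588 to 7532 CPM in control. In TPM, not plotted, the sum of the 31 overlaps, at 5581 to 6452 in RalA cKO against 5473 to 6070 in control. Most of the sum of the 6 members listed as myeloid-rich is Lgmn. The oligodendrocyte sums of the 3 groups overlap.

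The RNA of other cell type lists is given in the same way. Of all genes tested, 9.39% rose and 9.02% fell in RalAB cKO, and 1.71% rose and 1.07% fell in RalA cKO. In the mature oligodendrocyte list 8 of 14 genes fell in RalAB cKO, with a median of -0.47 log2, and 2, Opalin and Aspa, rose in RalA cKO, with a median of 0.31 log2, 8 of the 14 higher and 0 lower at an unadjusted p under 0.05, and 4 called higher by DESeq2. Astrocyte genes fell for 7 of 10 in RalAB cKO, and neuronal genes for 6 of 10. In RalA cKO none of these passed, with medians of -0.22 and -0.99 log2. There 0 astrocyte genes had an unadjusted p under 0.05, 5 neuronal genes were lower at that p, and DESeq2 called 0 and 2 lower. Of 10 oligodendrocyte precursor genes, 5 fell in RalAB cKO. In RalA cKO the precursor median was -0.53 log2 and none of the 10 passed, while 4 were lower and 1 higher at an unadjusted p under 0.05 and DESeq2 called 0. All 9 tested endothelial genes were below control in RalA cKO, with a median of -1.03 log2, and none passed, 7 being lower at an unadjusted p under 0.05 and 2 by DESeq2. The 8 tested pericyte and fibroblast genes had a median of -0.81 log2 there, and none passed, with 4 lower at an unadjusted p under 0.05 and 0 by DESeq2. The neuronal list summed to at most 199 CPM and the endothelial list to at most 64.2 CPM in any library. The part of these differences in the lysosomal values was not tested.

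The 7 RalA cKO rises depended on single libraries to an unequal degree. Cln3 and Cd63 kept their call in all 12 fits that left out 1 library, Ctsf in 9, Ctsa, Hexa and Neu1 in 8, and Mcoln1 in 7. Of 13 other settings, Cln3 kept its call in 13, Cd63 and Ctsf in 12, Ctsa and Hexa in 11, Neu1 in 9 and Mcoln1 in 8. The count of rising genes fell to 2 without RalA cKO mouse 4 or control mouse 2, and to 3 without RalA cKO mouse 2 or control mouse 3. RalA cKO mouse 4, the most deeply sequenced library, was the highest of its group for 27 of the 37 genes, and RalAB cKO mouse 1 was the lowest of its group for 29. Libraries with more Y-linked than Xist reads were unevenly spread over the groups. Among these libraries, the mean of 3 RalA cKO libraries was 1.27 to 2.13 times the 1 control library for the 7 genes. Among the rest, 1 RalA cKO library stood at 1.26 to 1.74 times the mean of 3 control libraries. The RalA cKO and control libraries do not overlap for these 7 genes, so any split gives ratios above 1. These ratios are therefore no check of the rises. With the 4 Y-linked genes as a covariate, Cln3 alone passed in RalA cKO, at 0.94 log2 (adjusted p = 0.0222), and Cd63 stood at 0.89 log2 (adjusted p = 0.0513). With all genes of the Y chromosome summed as the covariate, 7 genes passed, with Ctsk in place of Hexa. The 19 rises in RalAB cKO became 19 and 17 under these covariates.

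The rises were also looked for in single transcripts. Of 103 transcripts of the 37 genes that passed the filter, 16 passed the test in RalAB cKO and 1 in RalA cKO, where 1.68% and 0.117% of 31497 transcripts did; between the mutants 11 passed, against 1.52% of all. The one was Cln3-203, which holds 64.7% of the gene's counts, with 1.06 ± 0.15 log2 in RalAB cKO (adjusted p = 0.00654) and 1.05 ± 0.15 log2 in RalA cKO (adjusted p = 0.0411). The 2 main transcripts of Cd63 differed in size: Cd63-202 was at 2.62 ± 0.38 log2 in RalAB cKO (adjusted p = 0.00624) and 1.20 ± 0.36 log2 in RalA cKO (adjusted p = 0.261), and Cd63-201 at 0.97 ± 0.25 log2 in RalAB cKO (adjusted p = 0.0826) and 0.91 ± 0.25 log2 in RalA cKO (adjusted p = 0.224). The difference between these transcripts was not tested. Some members share sequence with neighbours: 37.15% of the 31-base words of Ctsd-202 occur in Gm49369 on the same strand, and 23.0% of those of the main Ctsa transcript, 15.87% for Ctsb and 11.44% for Hexa occur on the opposite strand in other genes. The libraries were made with a stranded kit, but the sources do not say whether strand was used in counting, so the values of these genes are uncertain to that extent. Cln3, Cd63, Ctsf, Neu1 and Mcoln1 share no such words with another gene in their main transcript.

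Other lysosomal genes, in 5 lists of 113 genes chosen by function, are given by their counts. Over all genes tested, 9.39% rose and 9.02% fell in RalAB cKO, and 1.71% rose and 1.07% fell in RalA cKO. The sorting list, with 1 rise and 1 fall among 20 genes in RalAB cKO, was not above these shares. The 0 to 2 rises per list in RalA cKO are not read as a result about the lists. Of 25 further hydrolases, 8 rose and 1 fell in RalAB cKO, and the acid nuclease Dnase2a rose by 1.97 ± 0.25 log2. None passed in RalA cKO, where 4 were higher and 2 lower at an unadjusted p under 0.05 and DESeq2 called 2 higher. Of 18 subunits of the proton pump, 6 rose in RalAB cKO and 1, Atp6v0b, in RalA cKO, at 0.66 ± 0.14 log2 (adjusted p = 0.0203). Of 29 further membrane proteins tested, 6 rose and 1 fell in RalAB cKO. The smallest p there was that of Slc15a3, at 2.77 ± 0.32 log2 (adjusted p = 4.81e-05). Slc15a3 had 2.12 to 3.84 CPM in RalA cKO and 2.42 to 6.69 CPM in control. Cd82, a tetraspanin, at 1.21 ± 0.26 log2 and Slc15a4, a proton-coupled transporter, at 0.41 ± 0.10 log2 rose in RalA cKO. Cd82 had 179 to 323 CPM in RalA cKO against 83.2 to 122 CPM in control. Of 20 genes of mannose 6-phosphate tagging and sorting, Sort1, the sortilin receptor, rose in both mutants, by 0.78 ± 0.15 log2 in RalAB cKO (adjusted p = 0.00209) and 0.73 ± 0.15 log2 in RalA cKO (adjusted p = 0.0176). Gnptg, a subunit of the tagging enzyme, rose in RalA cKO at 0.44 ± 0.11 log2, and Vps41, of the HOPS tether, fell in RalAB cKO at -0.42 ± 0.12 log2. Of 19 tested genes of MiT-TFE factors and lysosomal mTORC1 control, Flcn, Fnip2, Tfe3 and Zkscan3 rose in RalAB cKO, Flcn at 0.57 ± 0.09 log2 (adjusted p = 0.00066). None passed in RalA cKO, where 5 were higher and 1 lower at an unadjusted p under 0.05 and DESeq2 called 0. Laptm5, of the membrane proteins, stands in the microglial list as well. An autophagy list of 20 genes had 5 rises in RalAB cKO, Sqstm1, the cargo receptor p62, at 0.52 ± 0.14 log2 among them. It had none in RalA cKO, where 5 were higher at an unadjusted p under 0.05 and DESeq2 called 3 higher.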

How the data were processed

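RNA of sorted, oligodendrocyte-enriched spinal cord cells was sequenced, with 1 mouse per library and 4 per group. Per the labels' protocols, libraries were made from Trizol RNA with TruSeq Stranded mRNA. Per the submitters' processing notes, the tools were Trimmomatic 0.36 and kallisto 0.44 with GRCm38.p6. The deposited files give estimated counts, TPM and effective lengths per transcript. Of 121843 transcripts, 121104 matched GENCODE vM21 and 739 did not (0.2185% to 0.2772% of counts); estimated counts were summed per gene and rounded. edgeR 4.0.16 fitted one model over the 12 libraries (TMM scaling, filterByExpr with a minimum count of 10 and total of 15, quasi-likelihood test, Benjamini-Hochberg adjustment at 0.05). Standard errors are the fold change over the root of F, with 95% intervals. Deposited TPM summed per gene served to compare genes. Fits were tested on simulated data with 100 genes changed by each fold. Of genes changed 1.5-fold, 28% were recovered in RalA cKO minus control, 32% in RalAB cKO minus control and 25% between the mutants. Of genes changed 2-fold, 86%, 84% and 82% were recovered in the same order. A gene that did not pass can thus still have changed by 1.5-fold. DESeq2 1.42.0, limma 3.58.1 and the other alternatives appear below.

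The members and lists were chosen with earlier results of these data known. Every-mouse values were given for each member called in RalA cKO, the 10 with the smallest p in RalAB cKO against control, the 6 with the smallest p between the mutants, and Ctss, Lamp1, Lamp2, Galc, Psap and Tfeb; Ctsc, Scarb2, Lipa, Tpp1 and Lgmn are given by fold change. Up to 4 called genes per further list were eligible to be named. Libraries of a group differed beyond counting noise, so none was counted as a duplicate. One gene of a further list is not reported here by name.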

Additional observations from a re-analysis of the deposited data

Results flagged for a closer look

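In groups of 4 mice, a value that stood apart from the other 3 of its group was looked for in 111 groups, and chance alone flags about 1 in 20. In RalA cKO mouse 4, Ctsa had 418 CPM against 310.5 to 313 CPM in the others of its group, Ctsf 108 CPM against 82.5 to 85.3 CPM, Psap 2038 CPM against 1611 to 1625 CPM, and Naglu 30.5 CPM against 21.8 to 23.2 CPM. In RalAB cKO mouse 1, Arsa had 27.6 CPM against 36.7 to 37.8 CPM, Grn 256 CPM against 403 to 427 CPM, and Tfeb 171 CPM against 221 to 224 CPM. Ctsz was low in RalA cKO mouse 2, at 30.6 CPM against 42.0 to 44.1 CPM. Smpd1 was low in RalA cKO mouse 3, at 109 CPM against 134 to 135 CPM, and high in control mouse 1, at 134 CPM against 102 to 106 CPM. Lipa was high in control mouse 4, at 109 CPM against 81.6 to 85.3 CPM. The cause of these values was not tested.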

How the results depend on the processing

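The 19 rises in RalAB cKO stayed between 17 and 22 in every setting tried, and the 12 rises over RalA cKO between 10 and 13. The 7 rises in RalA cKO were 5 to 8 with other scalings, filters, designs and tools, 2 to 9 with 1 library left out, 11 without both control mouse 1 and RalAB cKO mouse 1, and 1 with the 4 Y-linked genes as a covariate. That definition was chosen after the result with all Y chromosome genes (7 rises) had been seen. Falls in RalA cKO were 1 with library totals alone (Scarb2), 2 with DESeq2 (Ctss and Scarb2), 1 without both libraries and 0 to 1 with 1 library left out; falls in RalAB cKO were 1 with library totals alone. The 1 fall between the mutants, Lipa, was 0 with transcript length offsets, the 4 Y-linked genes, or without both libraries, and 0 to 1 with 1 library left out; with all Y chromosome genes Lipa was lost and Ctsk was the 1 fall (-0.59 log2, adjusted p = 0.0309). With library totals the median of all genes was -0.138 log2 in RalA cKO, and 41.3% of calls were higher in place of 61.5%; in RalAB cKO 41.4% were higher in place of 51.0%. Of all genes, 374 passed in RalA cKO, but 1083 with DESeq2, 113 with the 4 Y-linked genes, 1693 without both libraries and 85 to 947 with 1 library left out (85, 103, 154, 176 and 248 without RalA cKO mouse 4, control mouse 2, control mouse 3, RalA cKO mouse 2 and control mouse 4 in that order, 947 without control mouse 1 and 677 without RalAB cKO mouse 1); in RalAB cKO 2478 passed, 3962 without both libraries and 1605 (without RalAB cKO mouse 4) to 3209 with 1 left out. Mouse numbers do not pair the libraries: the correlation of same-numbered libraries ran from -0.198 to 0.175, and 0 to 3 of 8 libraries per comparison matched their own number best. With mouse number as a replicate block the rises were 18 in RalAB cKO, 6 in RalA cKO (Mcoln1 lost) and 12 between the mutants, with 0 falls, and 232 genes passed in RalA cKO. The causes were not tested.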
